A study of Mus musculus with 6 samples.

Results

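Homeostatic microglia identity genes are transcripts by which resting, brain-resident microglia are told apart from other macrophages. The set comprised 9 genes chosen by name, out of 46078 genes listed for each library: the receptors *P2ry12*, *P2ry13*, and *Gpr34*, the surface proteins *Tmem119* and *Siglech*, the transporter *Slc2a5*, the transcription factor *Sall1*, the secreted protein *Olfml3*, and the crystallin *Crybb1*. They were measured by bulk RNA-Seq in 3 stroke infarcts and 3 regions of contralateral cortex from C57BL/6J wild type mice. Both groups are recorded as 3 months of age at a time point of 7 weeks, and the methods describe male mice in which the distal middle cerebral artery was occluded, with a period of hypoxia right after surgery. Both groups therefore came from mice that had undergone stroke, and uninjured mice were not analyzed here. Infarcts were cut out by eye and the matching region was taken from the other hemisphere, so each library holds all cells of a tissue piece, and in such samples fewer microglia cannot be told apart from less transcript per microglial cell. Nothing in the records states which infarct and which cortex came from the same mouse, or that libraries came from separate mice, so *p* values measure the spread between these libraries.

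Microglia enter the brain from the yolk sac before birth and renew themselves there, with survival signals through the receptor Csf1r and identity signals through TGF-β. In the healthy brain they survey tissue with moving processes and express a characteristic set of receptors and surface proteins, among them the 9 genes described here. On contact with injury, plaques, or myelin debris, microglia are known to lower this set and to raise lipid-handling and phagocytic genes of the disease-associated program. Macrophages that enter from blood share the general myeloid genes with microglia but express little of the homeostatic set.

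At 7 weeks after stroke the set did not move as a block. Of the 8 members with enough counts to test, *Olfml3* and *Tmem119* were upregulated in infarcts, *Slc2a5* was downregulated, and 5 were not called in either direction. A call required an adjusted *p* under 0.05 and a change of more than 2-fold in the edgeR quasi-likelihood test over 15554 genes, by which 25.7% of all tested genes were called higher and 20.9% lower. Without the fold requirement, 5 members (*Olfml3*, *Tmem119*, *Gpr34*, *P2ry13*, and *Sall1*) were higher and *Slc2a5* was lower, beside 34.2% and 30.8% of all tested genes. *Sall1* did not keep an adjusted *p* under 0.05 when certain libraries were left out, as given with its values. In 6 of the 8 members the infarct values did not overlap the contralateral values, and the same held for 72.3% of all tested genes, so neither share set the members apart from other genes. The median log2 fold change, given throughout as infarct over contralateral, was 0.61 over the 8 tested members and 0.03 over all tested genes. *Crybb1* was close to 0 in every library and was not tested in the main fit.

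The promoters of 4 members are shown, because *P2ry12* and *P2ry13* are neighbors that did not change alike, and because *Slc2a5* and *Olfml3* are the members with the lowest and the highest log2 fold change. Each sequence is the 250 bases before a start site in RefSeq (GRCm38.p6), read 5′ to 3′ on the strand of the gene, with matches to the searched motifs in capitals. Motifs were GAGGAA, the core bound by the myeloid factor PU.1, GGAANNGAA, a composite for ETS and IRF factors, and CAGACA, the SMAD box of TGF-β signaling, each searched on both strands.
P2ry12, chr3:59262986-59263235, minus strand: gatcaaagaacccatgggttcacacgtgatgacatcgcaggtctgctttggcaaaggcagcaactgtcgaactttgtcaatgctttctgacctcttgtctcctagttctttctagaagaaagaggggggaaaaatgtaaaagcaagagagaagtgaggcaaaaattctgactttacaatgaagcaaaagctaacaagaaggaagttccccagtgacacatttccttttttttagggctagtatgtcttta
P2ry13, chr3:59210883-59211132, minus strand: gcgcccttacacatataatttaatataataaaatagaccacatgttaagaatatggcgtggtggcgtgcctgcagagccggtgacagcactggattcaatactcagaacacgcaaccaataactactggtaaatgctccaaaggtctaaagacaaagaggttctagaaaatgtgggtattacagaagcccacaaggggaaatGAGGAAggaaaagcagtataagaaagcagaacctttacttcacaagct
Slc2a5, chr4:150119094-150119343, plus strand: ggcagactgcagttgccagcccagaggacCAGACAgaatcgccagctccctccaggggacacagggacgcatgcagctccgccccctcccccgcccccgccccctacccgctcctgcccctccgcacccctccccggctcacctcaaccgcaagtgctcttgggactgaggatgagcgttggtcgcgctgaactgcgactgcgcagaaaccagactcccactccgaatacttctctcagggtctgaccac
Olfml3, chr3:103738002-103738251, minus strand: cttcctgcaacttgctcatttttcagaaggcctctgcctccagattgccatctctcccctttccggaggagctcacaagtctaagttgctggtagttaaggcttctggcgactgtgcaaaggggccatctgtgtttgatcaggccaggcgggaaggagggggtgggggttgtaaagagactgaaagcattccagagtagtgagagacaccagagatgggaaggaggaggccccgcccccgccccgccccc
The *P2ry13* window held GAGGAA, with the first base of the match 48 bases before the start, a motif found in 23.3% of 32851 promoter windows of this length. The *Slc2a5* window held CAGACA beginning 221 bases before the start, and the same motif on the other strand was found in *Siglech*, beginning 75 bases before the start, and in *Crybb1*, beginning 42 bases before it. That motif occurred in 17.1% of all windows. GGAANNGAA, present in 6.99% of windows, was found in no member window, and the windows of *P2ry12*, *Olfml3*, and *Sall1* held none of the motifs. RefSeq windows were matched for 7 members, not for *Tmem119* and *Gpr34*. A match describes letters in the window and not a bound site.

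Of the purinergic pair, *P2ry13* rose by less than the 2-fold requirement, and *P2ry12* did not pass the test. *P2ry12* (ENSMUSG00000036353, chr3:59216272-59262871) encodes the ADP receptor by which microglial processes move toward injured cells, and is the gene most used to stain homeostatic microglia. TMM-scaled CPM is the count of a gene per 1000000 counts of its library. For this, the library total over tested genes was multiplied by a TMM scaling factor. The CPM of *P2ry12* was 49.0, 40.4, and 58.6 in infarcts 1, 2, and 3, compared with 56.2, 52.9, and 60.8 in contralateral cortices 1, 2, and 3. The values of the regions overlapped, with the lowest value in infarct 2. The log2 fold change was -0.20 (95% interval -0.58 to 0.18, adjusted *p* = 0.3205 in edgeR), so a change of 2-fold in either direction lay outside the interval. Scaling by library totals gave 0.0054, a change of sign.

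*P2ry13* (ENSMUSG00000036362, chr3:59207892-59210882), a related ADP receptor whose gene lies 5389 bases from *P2ry12*, reached 29.5, 19.2, and 22.9 CPM in infarcts, compared with 13.5, 14.7, and 14.7 CPM in contralateral cortices. All infarcts lay above all contralateral cortices, and infarct 1 was highest. The mean was 1.67-fold higher in infarcts (23.9 ± 5.18 against 14.3 ± 0.673 CPM, SD, n = 3 each), with a log2 fold change of 0.74 and an SE of 0.19 (edgeR adjusted *p* = 0.007113). *Gpr34* (ENSMUSG00000040229, chrX:13632089-13640858), a receptor for lysophosphatidylserine of the same receptor class, was measured at 39.1, 48.1, and 38.8 CPM in infarcts, compared with 18.9, 22.6, and 23.6 CPM in contralateral cortices. Every infarct was above every contralateral cortex. Its log2 fold change of 0.95 (SE 0.17, edgeR adjusted *p* = 0.0007449) stayed just under the 2-fold requirement. It passed that requirement without infarct 1 (1.02), without infarct 3 (1.02), or without contralateral cortex 3 (1.02), and with scaling by library totals (1.16).

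Other P2Y receptor genes rose where they could be tested. Of 7 genes listed for this family outside the set, 5 had enough counts, and all 5 were upregulated. *P2ry6*, counted here with other homeostatic genes, was also upregulated (4.75). The lowest log2 fold changes were those of *P2ry14*, a receptor for UDP-glucose, at 2.59, and *P2ry1*, another ADP receptor, at 3.23. The highest were those of the orphan receptor *Gpr171* at 5.21 and of *P2ry10*, a lysophosphatidylserine receptor of lymphocytes, which had 427, 324, and 184 counts in infarcts, compared with 0, 5, and 0 in contralateral cortices. *P2ry12* was thus the tested P2Y gene with the lowest log2 fold change, although differences between genes were not tested here.

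*P2ry12* and *P2ry13* lie within *Med12l*, a Mediator subunit gene that spans both on the other strand. *Med12l* shared 9 exon bases with *P2ry12*, which is 0.353% of its exon bases, and none with *P2ry13*. It was downregulated, from 52.7 ± 4.32 to 12.9 ± 4.41 CPM (log2 fold change -2.03, edgeR adjusted *p* = 5.96e-05). *Cask*, a neuronal scaffold gene, spans *Gpr34* on the other strand without a shared exon base and was measured at 75.9 ± 2.45 CPM in infarcts, compared with 141.5 ± 7.90 CPM in contralateral cortices. The libraries were made with a stranded kit, and the strand setting of the counting is not given in the sources used here. Reads from introns of the spanning genes were not separated from those of the members, and their part in these values was not tested.

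**Figure D1:**
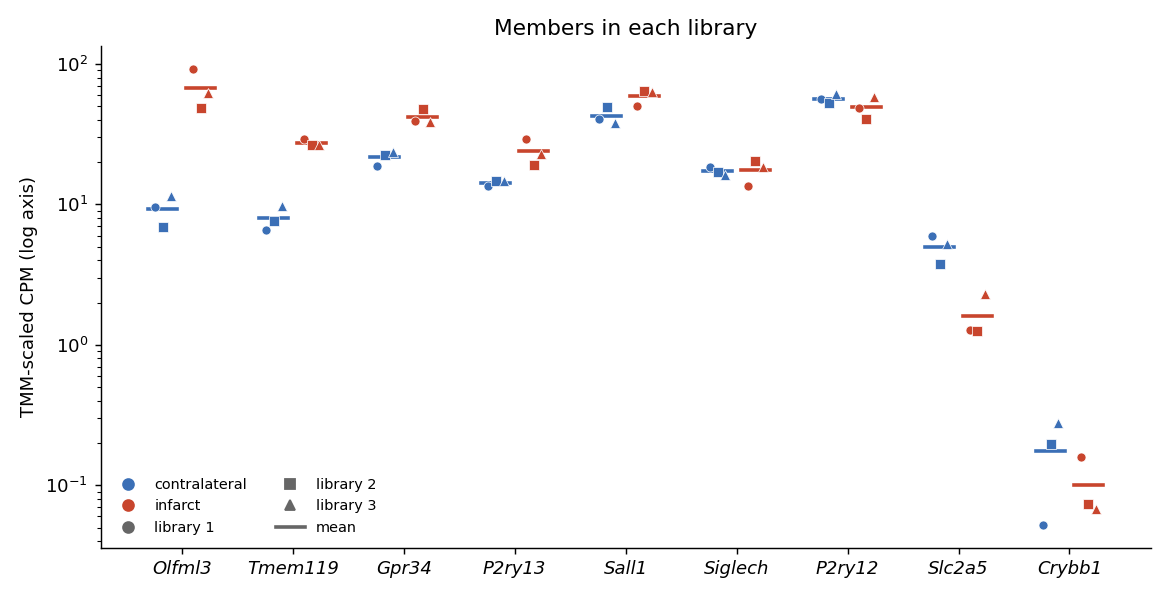
TMM-scaled CPM (log axis) of the 9 members in each library, with contralateral cortices in blue, infarcts in red, marker shape for the library number, and a line at the mean of 3. *Olfml3* and *Tmem119* separate widely with infarcts higher, *Slc2a5* separates with infarcts lower, *Siglech* and *P2ry12* overlap, and *Crybb1* lies at single counts per library.

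The surface proteins differed from each other. *Tmem119* (ENSMUSG00000054675, chr5:113793729-113800516) encodes a membrane protein of unknown function in microglia that distinguishes them from blood-derived macrophages. Its CPM was 29.5, 26.4, and 26.6 in infarcts, compared with 6.58, 7.62, and 9.69 in contralateral cortices. The infarcts were closely grouped, with a coefficient of variation of 6.28%, and all lay well above the contralateral cortices. *Tmem119* was upregulated 3.47-fold, from 7.96 ± 1.58 to 27.5 ± 1.73 CPM (log2 fold change 1.80, 95% interval 1.37 to 2.22, edgeR adjusted *p* = 2.879e-05).

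*Siglech* (ENSMUSG00000051504, chr7:55768178-55778925) encodes a receptor of the Siglec family that signals through Tyrobp and is also a marker of plasmacytoid dendritic cells. It was measured at 13.5, 20.4, and 18.6 CPM in infarcts, compared with 18.4, 17.1, and 16.2 CPM in contralateral cortices. The lowest and the highest of the 6 values were both infarcts. The log2 fold change was 0.02 (95% interval -0.42 to 0.45, edgeR adjusted *p* = 0.937), and its sign turned under limma voom, under upper quartile scaling, and without infarct 2, without infarct 3, or without contralateral cortex 3.

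Markers of plasmacytoid dendritic cells moved in both directions. Of 10 such genes, 9 were tested, 6 were higher, and 2 were lower. *Spib*, a transcription factor of these and of B cells, had 494, 183, and 181 counts in infarcts, compared with 0, 0, and 2 in contralateral cortices, and *Ly6d* rose with a log2 fold change of 5.08. *Pacsin1* (log2 fold change -2.97) and *Cox6a2* (-1.49), also expressed outside these cells, were lower. The summed level of the list was 930.9 to 1052 CPM in infarcts, compared with 1278 to 1421 CPM in contralateral cortices, with none of the defining markers at 0 in all libraries of a region. *Tcf4*, which many brain cells express, made up most of that sum, with 824.1 ± 64.9 CPM in infarcts, compared with 1119 ± 73.9 CPM in contralateral cortices. Their part in the *Siglech* value was not tested. The 5 further Siglec genes listed for comparison all rose, with the smallest log2 fold changes among them in *Cd33* (1.63) and *Siglece* (2.79). That list left out *Siglec1* (7.63), counted here with border-associated macrophages, and *Mag* (0.73, not called), counted with oligodendrocytes. *Siglecg*, a lectin of B cells, had 49, 87, and 68 counts in infarcts, compared with 0 in every contralateral cortex, and *Cd22*, also of B cells, had 753, 467, and 485 counts in infarcts, compared with 2, 0, and 2 in contralateral cortices.

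*Slc2a5* (ENSMUSG00000028976, chr4:150119283-150144169) encodes the fructose transporter GLUT5, which in brain is a microglial transcript, and was the member that fell. It held 16, 17, and 34 counts in infarcts, compared with 114, 58, and 57 counts in contralateral cortices, which is 1.27, 1.25, and 2.32 CPM against 5.95, 3.78, and 5.26 CPM. The regions did not overlap, and infarct 3 was the highest of the infarcts. The mean was 3.07-fold lower in infarcts (1.61 ± 0.612 against 4.997 ± 1.11 CPM), with a log2 fold change of -1.62 and an SE of 0.35 (edgeR adjusted *p* = 0.002547). Its 95% interval, -2.41 to -0.83, was the widest among the tested members. Infarct 3 also had the highest summed neuronal marker level of the infarcts, 1361 CPM beside 490.02 and 707.6 CPM in infarcts 1 and 2. A link between this level and the *Slc2a5* value was not tested. Without infarct 3, the log2 fold change of *Slc2a5* was -1.96.

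The sugar transporters related to *Slc2a5* went both ways. Of 9 tested family genes, 4 rose, 2 fell, and 3 were not called. *Slc2a9*, which transports urate, and *Slc2a10* had the largest log2 fold changes (3.04 and 2.47). *Slc2a13*, a myo-inositol transporter, and *Slc2a3*, the main glucose transporter of neurons, had the smallest (-3.13 and -2.28).

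*Sall1* (ENSMUSG00000031665, chr8:89027235-89044162) encodes a zinc finger transcription factor that maintains microglial identity. It was measured at 50.1, 64.0, and 63.3 CPM in infarcts, compared with 40.6, 49.2, and 38.0 CPM in contralateral cortices. Every infarct lay above every contralateral cortex, although infarct 1 and contralateral cortex 2 were nearly level. The mean was 1.39-fold higher in infarcts (59.2 ± 7.85 against 42.6 ± 5.87 CPM, log2 fold change 0.47, SE 0.17, edgeR adjusted *p* = 0.03047), below the 2-fold requirement. The edgeR adjusted *p* of *Sall1* rose to 0.09002 without infarct 2, 0.06222 without infarct 3, 0.1064 without contralateral cortex 1, and 0.1061 without contralateral cortex 3. Of its relatives, *Sall2* (-0.17) and *Sall3* (0.29) were not called, and *Sall4* had too few counts.

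*Olfml3* (ENSMUSG00000027848, chr3:103722222-103738001) encodes a secreted olfactomedin-like glycoprotein, made in brain mainly by microglia and elsewhere by connective tissue cells. Its CPM was 92.6, 48.5, and 62.2 in infarcts, compared with 9.56, 6.90, and 11.4 in contralateral cortices. The SD of the infarcts in CPM was the largest among tested members, but all infarcts were far above the contralateral cortices. As a coefficient of variation this spread was 33.3%, below the 37.9% of *Slc2a5* in infarcts. *Olfml3* was upregulated 7.30-fold, from 9.30 ± 2.28 to 67.7 ± 22.6 CPM (log2 fold change 2.87, SE 0.27, edgeR adjusted *p* = 2.199e-05).

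Genes of connective tissue and the related olfactomedin-like genes were higher in the same libraries. *Olfml1*, *Olfml2a*, and *Olfml2b*, which are not microglial markers, were all upregulated, with log2 fold changes of 2.24, 2.94, and 2.15. All 10 fibroblast and leptomeningeal markers were upregulated, led by the collagen *Col3a1* (7.35) and the proteoglycan *Lum* (7.28), with *Slc6a13* (1.502) and *Igf2* (1.75) lowest. Their summed level was 7456 to 9411 CPM in infarcts, compared with 229.1 to 321.6 CPM in contralateral cortices, and none was at 0 in a region. Their part in the *Olfml3* value was not tested.

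*Crybb1* (ENSMUSG00000029343, chr5:112255815-112269585), a beta crystallin of the lens that marks young and homeostatic microglia, gave 2, 1, and 1 counts in infarcts, compared with 1, 3, and 3 counts in contralateral cortices. These totals of 4 and 7 counts did not pass the low-count filter, and the main edgeR fit gave no fold change. Without that filter, the log2 fold change was -0.77 in DESeq2 (adjusted *p* = 0.716) and -0.67 in edgeR (adjusted *p* = 0.6949). *Crybb1* was called in neither fit. None of 5 other beta crystallin genes passed the filter either.

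Levels between members were compared as CPM per kilobase of exon. In contralateral cortices *P2ry12* was the most abundant member (22.2 ± 1.56 CPM per kilobase), followed by *Gpr34* (10.4 ± 1.20) and *Sall1* (8.09 ± 1.11), whose values overlapped. *P2ry13* (5.66 ± 0.266) and *Siglech* (5.10 ± 0.328) came next and overlapped, then *Tmem119* (3.44 ± 0.684). *Olfml3* (1.51 ± 0.370) and *Slc2a5* (1.47 ± 0.327) were low and overlapped, and *Crybb1* was last at 0.177 ± 0.115. *P2ry12* thus stood alone at the top of the set in cortex.

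In infarcts the order of the same quantity was different. *Gpr34* (20.1 ± 2.53) and *P2ry12* (19.4 ± 3.57) overlapped at the top. *Tmem119* (11.9 ± 0.746), *Sall1* (11.2 ± 1.49), *Olfml3* (11.0 ± 3.66), and *P2ry13* (9.45 ± 2.05) followed, each overlapping the next. *Siglech* (5.17 ± 1.06), *Slc2a5* (0.475 ± 0.180), and *Crybb1* (0.102 ± 0.0519) were lowest, without overlap between these neighbors.

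As a share of all counts on the 9 members, *P2ry12* made up 33.1%, 30.2%, and 33.8% in contralateral cortices 1, 2, and 3, compared with 16.1%, 15.1%, and 20.0% in infarcts 1, 2, and 3. *Olfml3* made up 5.63%, 3.94%, and 6.36% in contralateral cortices and 30.4%, 18.1%, and 21.2% in infarcts. The members' summed level was 169.7 to 180.1 CPM in contralateral cortices and 268.3 to 304.6 CPM in infarcts. The make-up of the set therefore differed between the regions in every library, with *P2ry12* a smaller share and *Olfml3* a larger share in infarcts.

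Ratios between members within a library do not depend on how libraries are scaled. *Tmem119* counts relative to *P2ry12* counts were 0.602, 0.653, and 0.455 in infarcts, compared with 0.117, 0.144, and 0.159 in contralateral cortices. The log2 ratio was higher in infarcts by 2.02, without overlap (two-sided exact permutation *p* = 0.1, Benjamini-Hochberg adjusted 0.133 over 4 ratios), and 0.1 is the smallest *p* that 3 against 3 libraries allow. *P2ry13* relative to *P2ry12* was 0.602, 0.476, and 0.392 in infarcts, compared with 0.241, 0.278, and 0.241 in contralateral cortices, a log2 difference of 0.93 without overlap (exact permutation *p* = 0.1, adjusted 0.133). *Sall1* relative to *Tmem119* fell by 1.33 on the log2 scale, from 6.17, 6.46, and 3.92 to 1.70, 2.43, and 2.38, again without overlap (exact permutation *p* = 0.1, adjusted 0.133). In each of these ratios the libraries of the regions were separate. *Siglech* relative to *P2ry12* overlapped, with a log2 difference of 0.21 (SD 0.460 over infarcts and 0.165 over contralateral cortices, exact permutation *p* = 0.7), and it was -0.05 without infarct 2.

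**Figure D2:**
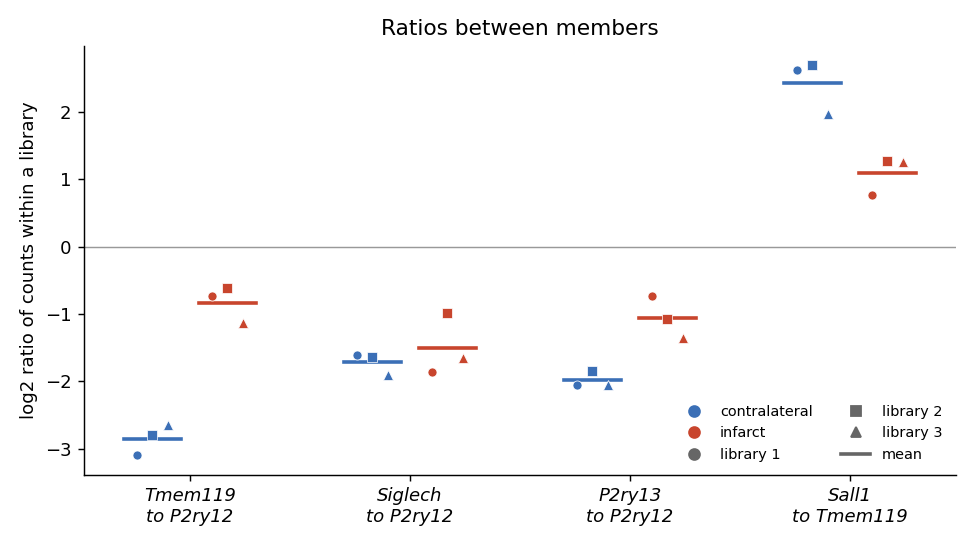
Log2 ratio of the counts of a pair of members within each library, for 4 pairs, with contralateral cortices in blue, infarcts in red and a line at the mean of 3. The regions are separate for *Tmem119* to *P2ry12*, *P2ry13* to *P2ry12*, and *Sall1* to *Tmem119*, and overlap for *Siglech* to *P2ry12*.

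Other homeostatic microglia genes mostly rose. Of 19 such genes, 18 were tested, 12 were upregulated, 1 was downregulated, and the median log2 fold change was 1.81. The largest log2 fold change was that of *P2ry6*, a UDP receptor of phagocytosis also expressed by other macrophages, at 4.75. The fractalkine receptor *Cx3cr1* rose from 80.9 ± 13.96 to 243.0 ± 9.88 CPM. *Rtn4rl1*, a Nogo receptor relative, fell by 1.81 on the log2 scale, and *Bin1* (-0.75) was next, short of the 2-fold requirement. The list was not limited to genes that only microglia express, and the part of other cells in its values was not tested.

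General myeloid transcripts and the disease-associated program were higher in infarcts. All 15 shared myeloid genes were upregulated, with a median log2 fold change of 4.62, from *Csf1r*, the receptor on which microglia depend (1.96), and *Itgam* (2.65) to the protease *Ctss* (5.18) and the leukocyte phosphatase *Ptprc* (5.81). All 20 disease-associated genes were upregulated, with a median of 4.79. The smallest were *Csf1* (2.57) and *Axl* (2.82), and the largest were the membrane glycoprotein *Gpnmb* (9.64) and the lectin *Clec7a*, which had 4428, 4112, and 3631 counts in infarcts, compared with 2, 5, and 0 in contralateral cortices. Both medians exceeded the 0.61 of the members and the 0.03 of all genes.

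Genes that carry the signals for microglial identity and survival went both ways. Of 17 such genes, 9 rose, 2 fell, and 6 were not called, with a median log2 fold change of 1.41. The transcription factors *Runx1* (5.29) and *Irf8* (4.75) rose most, and among the TGF-β genes *Tgfb1* rose from 3.70 ± 0.333 to 86.8 ± 18.8 CPM. *Il34*, the ligand of Csf1r that cortical neurons make, fell from 26.9 ± 2.92 to 12.4 ± 3.02 CPM (log2 fold change -1.12, SE 0.21, edgeR adjusted *p* = 0.001057). *Mef2c*, a factor of neurons as well as microglia, fell by 3.04 on the log2 scale.

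**Figure D3:**
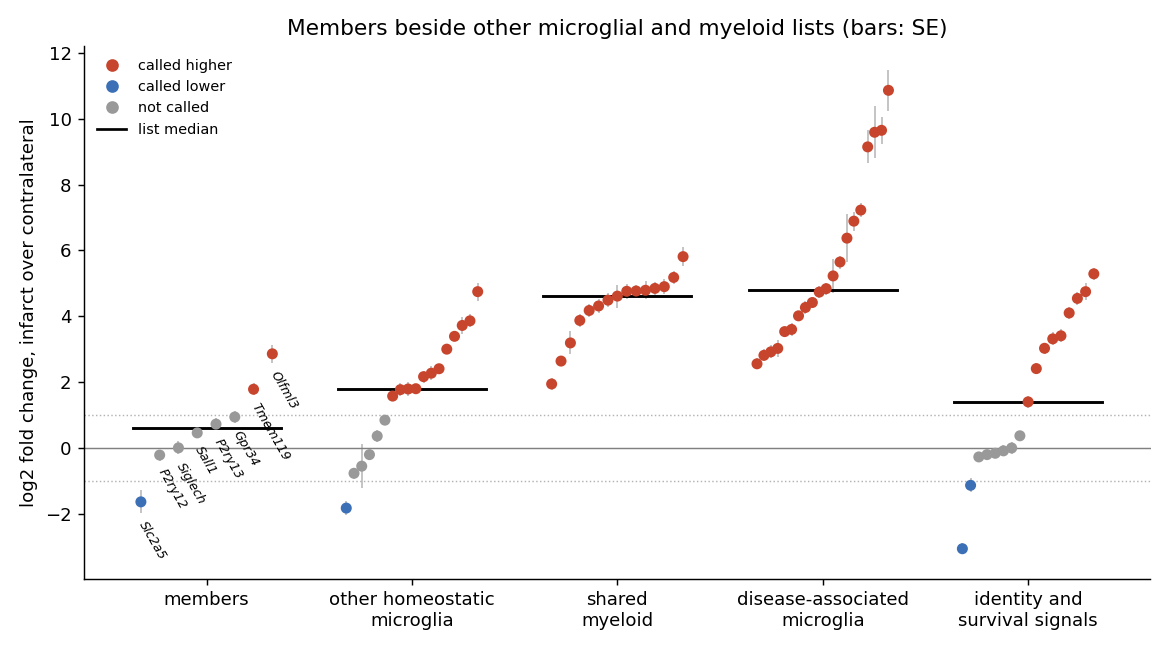
Log2 fold change, infarct over contralateral, of each tested gene in 5 lists, with bars for the SE, dotted lines at the 2-fold requirement and a black line at the list median. The 8 tested members, labeled by name, lie between -1.62 and 2.87 with a median of 0.61, below the medians of the other 4 lists.

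Markers of other myeloid cells moved with the same libraries. All 11 tested markers of monocytes and monocyte-derived macrophages were upregulated, with a summed level of 7091 to 10872 CPM in infarcts, compared with 159.7 to 207.5 CPM in contralateral cortices. The chemokine receptor *Ccr2* had 2332, 2352, and 1591 counts in infarcts, compared with 23, 9, and 17 in contralateral cortices, and *Ear2*, *Ms4a4c*, and *S100a4* were at 0 in every contralateral cortex. Of 11 markers of border-associated macrophages, which live in meninges and around vessels, 10 were upregulated, with a summed level of 580.4 to 896.01 CPM beside 44.0 to 50.4 CPM. The exception was *Cd163*, with a log2 fold change of 0.46. Platelets, another source of *P2ry12*, had 8 markers with summed levels of 5.02 to 6.89 CPM in infarcts, compared with 8.07 to 10.2 CPM in contralateral cortices, where *Ppbp* and *Gp6* were at 0 in every library, and 2 of the 4 tested fell. The part of these cells in the members' values was not tested.

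Markers of neurons, the main cells of cortex, went the other way. Of 10 neuronal markers 9 were downregulated, with a median log2 fold change of -2.98 and a summed level of 490.02 to 1361 CPM in infarcts, compared with 7662 to 8749 CPM in contralateral cortices. Astrocyte markers were mixed, with *Gfap* (4.81) and *Aqp4* (1.68) higher, *Slc1a2* (-2.07) lower and 4 of 7 not called. Of 7 oligodendrocyte markers 4 were higher, led by *Cldn11* (2.36), and none was lower. The contralateral libraries thus carried the neuronal markers of the labeled cortex, and in the infarct libraries these were lower.

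Relative to the pool of myeloid transcripts, every tested member was lower in infarcts. Each member was divided by the summed counts of the 15 shared myeloid genes of the same library, a ratio of transcripts and not of cells. On this scale 8 of 8 members were called lower, but so were 89% of all tested genes, with 3.47% called higher and a median log2 fold change of -3.84 over all genes, so the count is no result about the members. The division moves all genes of a library by the same factor, so the order of the members on CPM is kept by construction. *Slc2a5* had the lowest log2 fold change (-5.44, SE 0.38), followed by *P2ry12* (-4.06), *Siglech* (-3.83), *Sall1* (-3.40), *P2ry13* (-3.17), *Gpr34* (-2.92), and *Tmem119* (-2.08, SE 0.26), and *Olfml3* had the highest (-1.03, SE 0.25). The median of the members was -3.29.

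The values of a few members on this scale are given beside the all-gene median of -3.84, which a gene of unchanged CPM would be near. Per 1000 counts of the myeloid reference, *P2ry12* gave 196.3, 220.1, and 189.2 counts in contralateral cortices and 9.43, 10.5, and 16.4 counts in infarcts. *Tmem119* gave 23.0, 31.7, and 30.1 counts in contralateral cortices and 5.67, 6.85, and 7.45 in infarcts. *Olfml3* gave 33.4, 28.7, and 35.6 against 17.8, 12.6, and 17.4. The regions were separate for all of these genes, and the log2 fold change of *P2ry12*, -4.06, was close to the all-gene median, while those of *Tmem119* and *Olfml3* were above it. The *Olfml3* call was lost without infarct 2 (-0.89), without contralateral cortex 3 (-0.96), or with a reference that left out the *C1q* genes (-0.85).

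The lists compared in the same way did not all fall. Of the 20 disease-associated genes, 9 were higher and 2 lower relative to the myeloid reference, with a median log2 fold change of 0.93. Of the 18 other homeostatic genes tested, 0 were higher and 13 were lower, with a median of -2.09. The members' median, -3.29, was the lower of the homeostatic medians, without a test of that difference.

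**Figure D4:**
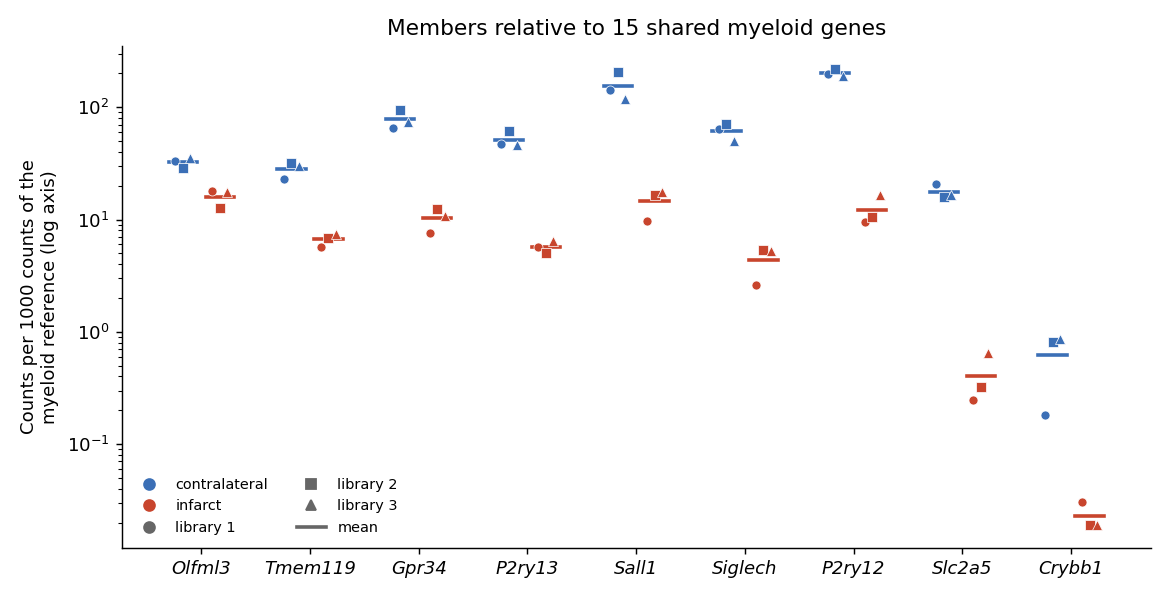
Counts of each member per 1000 counts of the 15 shared myeloid genes in the same library (log axis), with contralateral cortices in blue, infarcts in red and a line at the mean of 3. Infarcts lie below contralateral cortices for every member, by the widest margin among tested members for *Slc2a5* and the narrowest for *Olfml3*.

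The genes whose profile over the 6 libraries lay closest to each member were found by Euclidean distance between log2 CPM values, after subtracting the contralateral mean. For *P2ry12* they were *2610035D17Rik* (distance 0.146), *Ush1g*, and *Zfp558*, and for *P2ry13* they included *Ino80c* (0.145) and *Parn*. For *Sall1* the closest was *Trim13* (0.111), for *Siglech* *Ttc39c* (0.127), and for *Gpr34* *Sstr4* (0.221). For the called members the closest were *Igfbp6* (0.209) for *Tmem119*, *Agap3* (0.237) for *Slc2a5*, and *Uhrf1* (0.326) for *Olfml3*. None of the 24 genes found by this rule belonged to the set. Only 8 of the 15554 tested genes are members, so this absence is no result about the set. Closeness was measured over 6 libraries in 2 groups, and a gene with a like difference between the regions is close on this measure whatever its role.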

How the data were processed

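RNA was sequenced from 3 infarcts and 3 contralateral cortices, with groups taken from the sample titles. Per the labels, the authors used bcl2fastq 2.19, Trimmomatic 0.32, STAR 2.5.2b with GRCm38, and HTSeq, and deposited whole read counts per Ensembl gene without normalization. The version, annotation, and strand setting of HTSeq are not given in the sources used here. Tables list 46078 genes and 5 tallies that name no gene (26.6% to 34.3% of tallied reads), which were left out. Counts on genes totaled 12146959 to 13427057 in infarcts and 11943570 to 19933962 in contralateral cortices, and no libraries held identical values. Identifiers were matched to GENCODE M21 (45229 matched, 849 not).

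Tests used edgeR 4.0.16 in R 4.3.3 (filterByExpr, TMM, robust glmQLFit and glmQLFTest, region as the only term, biological coefficient of variation 0.22), with Benjamini-Hochberg adjustment over 15554 genes. A second fit took the summed counts of 15 shared myeloid genes as library size, and 4 ratios between members were compared by exact permutation. Errors are SD over libraries or SE of fitted coefficients. Alternatives used DESeq2 1.42.0, limma 3.58.1, other scalings, filters, and thresholds, thinned counts, a replicate block, and each library left out. The procedure was tested on simulated data. Values were summarized with Python 3.11.15 and pandas 2.3.3 and plotted with matplotlib 3.10.9.

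Named genes were all 9 members, the 2 genes with the largest and the 2 with the smallest log2 fold change of each list where reported, the 3 nearest profiles of each member, and genes overlapping a member's exons. *Cask*, *Cx3cr1*, *Tcf4*, *Tgfb1*, *Ccr2*, *S100a4*, *Ppbp*, and *Gp6* are not covered and were picked with their values in view. Some genes that the rule covers are not reported here. The members and lists were chosen with earlier results of these data known.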

Additional observations from a re-analysis of the deposited data

How the results depend on the processing

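Of 136 alternative values of the comparison between regions, 123 kept their direction and their call, 7 were newly called, and 6 changed sign. *Gpr34* newly passed the 2-fold requirement with library totals and without infarct 1, infarct 3, or contralateral cortex 3. The other new calls were those of *Gpr34*, *P2ry13*, and *Sall1* with no fold change threshold, where that requirement was dropped. With no fold change threshold, 5 members were higher in place of 2. The sign of *P2ry12* turned with scaling by library totals (0.0054), which moved the median of all genes from 0.03 to 0.23, and that of *Siglech* turned with limma voom (-0.0022) and upper quartile scaling (-0.0048). With each library left out, *Siglech* ranged from -0.0876 to 0.193, the *Siglech* to *P2ry12* log2 ratio from -0.0455 to 0.394, *Gpr34* from 0.85 to 1.02, *Slc2a5* from -1.96 to -1.44, and *P2ry12* from -0.33 to -0.05, and 2 to 3 members were called higher and 1 lower. The adjusted *p* of *Sall1*, called only without the fold threshold, was above 0.05 in 4 of these fits. Relative to the myeloid reference, 77 of 80 values kept their call, and 7 or 8 members were lower when a library was left out. On that scale 89% of all tested genes were called lower in the main fit, so this count is no result about the members. In both comparisons the setting with no fold change threshold reused the main fit, so its log2 fold changes could not differ. The causes of the changes under the alternatives were not tested. The records do not say whether the replicate numbers pair the libraries. Same-numbered infarcts and contralateral cortices correlated at -0.19, 0.10, and 0.0011 in their deviations from the group means. Other pairs gave -0.24 to 0.18, and not every library correlated best with its own number. Deviations from means of 3 libraries in different tissues cannot settle which libraries came from the same mouse. With the replicate number as a block, 2 members were higher and 1 lower, as without it, and 3945 and 3222 genes were called beside 3999 and 3256. *Crybb1*, at 1 to 3 counts per library, was tested only in fits without the low-count filter, where it was not called. The interval of *Slc2a5* was wide. Intervals rest on 3 libraries per region.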
